A study of Homo sapiens with 12 samples.

Results

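The osimertinib response of 2 EGFR-mutant lung cancer lines was compared gene by gene, as the change in H1650 cells minus the change in PC9 cells on the log2 scale. The comparison used 8 of the 12 libraries of the series: PC9 at T0, PC9 with osimertinib, H1650 at T0 and H1650 with osimertinib, with 2 replicates each. T0 cells were taken at the time of drugging (0.1% DMSO, 0 h), and treated cells were taken after 36 h with 0.1 μM osimertinib. The other 4 libraries, of cells given 10 μM erlotinib for 36 h, entered the model so that all groups shared an estimate of the spread. PC9 and H1650 are established human non-small cell lung cancer lines that carry the same activating EGFR deletion and were not edited for this experiment. A positive drug-by-line difference means that the level moved up more, or down less, in H1650 than in PC9. The contrast addresses how far the transcriptional responses of the lines to EGFR inhibition are alike.

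EGFR is a receptor tyrosine kinase whose active form feeds the RAS-ERK and PI3K-AKT pathways, and osimertinib blocks its mutant form by binding covalently in the kinase domain. ERK induces ETS factors and feedback inhibitors and keeps cyclin D and the E2F-driven replication genes on, so these transcripts usually fall when EGFR is blocked, while FOXO targets rise when AKT is inactive. Actin dynamics and cell tension act through a separate pair of regulators: SRF with its MRTF partners drives contractile genes, and YAP with TEAD factors drives matricellular genes such as CCN1 and CCN2.

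The 8 libraries held between 18550718 and 26346187 reads counted on genes, and replicates correlated at 0.990 to 0.991 (Pearson, log2 CPM). At this depth 3 reads, the most that a count of 0 allows, correspond to 0.128 to 0.153 normalized CPM (counts per scaled library size, in CPM), which covers counting error only. The epithelial markers EPCAM, CDH1, KRT7, KRT8, KRT18 and KRT19 were abundant in every library (EPCAM at 199 to 541 CPM, KRT8 at 2760 to 4280). The fibroblast markers DCN, LUM and COL1A2, and the leukocyte markers PTPRC and LYZ, had at most 5 reads in any library. Other markers were present: COL1A1 at 11.9 to 44.8 CPM, COL3A1 at 0 to 19.9, PDGFRB at 0 to 1.02, CD14 at 0.0504 to 3.96, CDH5 at 0 to 3.48 and VWF at 0.0386 to 2.22. The summed fibroblast markers were at 18.4 to 21.1 CPM in PC9 at T0 and 37.8 to 45.9 with drug, and at 24.3 to 24.9 and 32.6 to 34.7 in H1650. The summed endothelial markers went from 2.67 to 2.81 up to 5.05 to 5.83 CPM in PC9 and from 0.193 to 0.466 up to 1.00 to 1.78 in H1650, and the summed leukocyte markers from 0.655 to 1.04 to 0.509 to 0.841 and from 1.93 to 2.61 to 3.25 to 3.96. Their part in the results below was not tested. Mitochondrial genes took 4.36% to 7.2% of the reads. The treated cells were harvested 36 h after the T0 cells, and a 36 h vehicle library was not analysed here, so changes with drug and with time in culture cannot be told apart. Likewise, in bulk RNA, fewer cells of a kind and less RNA per cell cannot be told apart.

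Where the lines differed, the change was most often in the same direction and smaller in H1650. Of 19108 tested genes, 8004 (41.9%) had a drug-by-line difference at an adjusted p under 0.05 (edgeR quasi-likelihood test, Benjamini-Hochberg), of which 4104 were above 0 (21.5%) and 3900 below 0 (20.4%). The difference exceeded 1 in size for 3840 genes. In PC9, 6226 genes rose (32.6%) and 5478 fell (28.7%), against 3365 (17.6%) and 3434 (18%) in H1650. The largest class, 4677 genes (24.5%), changed in the same direction but by less in H1650. Of these, 2619 also passed the test in H1650 and 2058 did not. Only 307 genes (1.61%) changed in the same direction but by more in H1650. The median drug-by-line difference over all tested genes was -0.03.

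A smaller class moved in opposite directions. Of 801 such genes, 332 (1.74%) rose in H1650 and fell in PC9, and 469 (2.45%) fell in H1650 and rose in PC9, each passing the test in both lines and in the drug-by-line term. By comparison, 4615 genes were called in both lines with the same sign. Most opposite changes were modest: the smaller of the changes had a median size of 0.45, exceeded 0.5 for 338 genes, and exceeded 1 for 128 genes (46 rising and 82 falling in H1650). In 43 of the 801, at least 1 group held no more than 3 reads per library, and 35 of these were among the 128 whose changes both exceeded 1. Such a group was present in 433 of the 8004 genes with a called difference and in 2929 of the 19108 tested genes. A further 2219 genes had a called difference but were in neither the opposite nor the same-direction classes. Of these, 1671 were called only in PC9, 394 only in H1650 and 154 in neither. A gene called only in PC9 was left here if its signs were unlike, or if its uncalled H1650 change had the same sign and was no smaller. The rule for genes called only in H1650 was the same with the lines exchanged. These genes are not counted as opposite, since that class needed a call in both lines. The same-direction classes needed a call only in the line that changed more, so the class sizes rest on unlike rules.

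**Figure D1:**
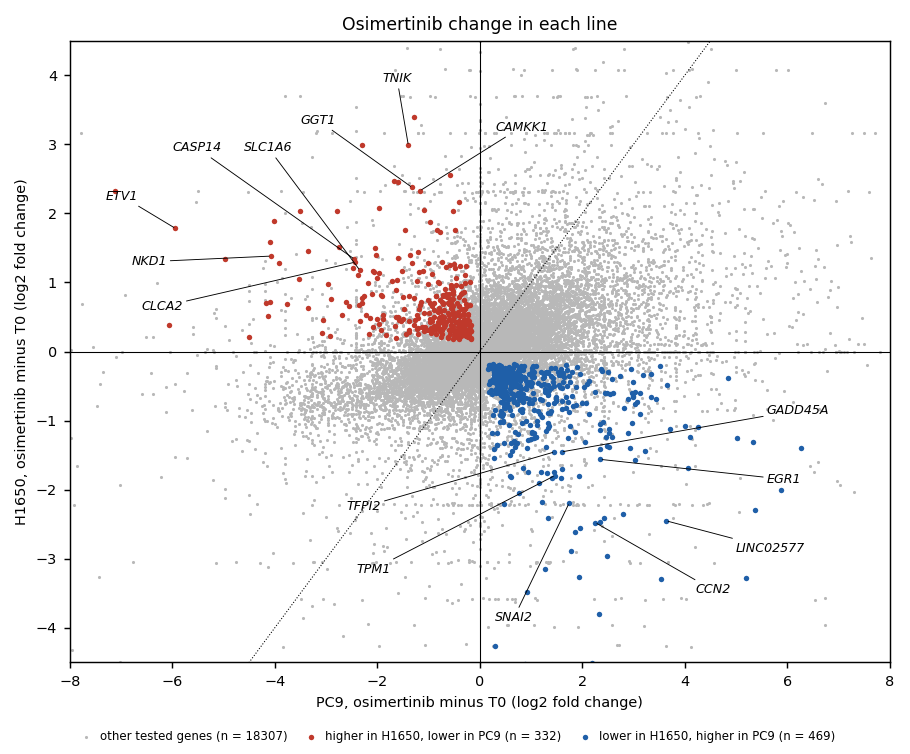
Log2 fold change of each tested gene with osimertinib in PC9 (horizontal axis) and in H1650 (vertical axis), with genes called in opposite directions in color, equal change as the dotted line, and 86 genes outside the axes. The grey cloud is flatter than the dotted line, and the 332 red and 469 blue genes fill the upper left and lower right quadrants, with ETV1 farthest left among the labelled genes.

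CCN2 fell in H1650 and rose in PC9. This gene encodes a secreted matricellular protein, is a standard target of YAP and TEAD, and lies on chromosome 6, 131948176 to 131951372 (GRCh38.p14). It went from 30.4 and 26.1 to 137 and 133 normalized CPM in PC9 and from 263 and 261 to 46 and 48 in H1650. The lines thus crossed, with H1650 above PC9 at T0 and below it with drug. The changes were 2.26 ± 0.0890 in PC9 and -2.48 ± 0.0852 in H1650 (log2 ± SE), and the drug-by-line difference was -4.73 ± 0.123 (SE, adjusted p = 2.07e-24).

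EGR1 (chromosome 5, 138465479 to 138469303), an immediate-early zinc finger factor that ERK and SRF induce, was the single member of the ERK output list that moved this way. EGR1 went from 36 and 27.6 to 175 and 150 normalized CPM in PC9 and from 492 and 439 to 163 and 152 in H1650, so that the treated groups overlapped while the T0 groups stood far apart. The drug-by-line difference was -3.92 ± 0.148 (SE, adjusted p = 2.44e-15).

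TPM1 (chromosome 15, 63042747 to 63071915), which encodes a tropomyosin of actin filaments, went from 179 and 181 to 486 and 507 normalized CPM in PC9 and from 1620 and 1721 to 470 and 493 in H1650. Here too the treated lines met at a similar level, at 497 ± 14.6 CPM in PC9 and 481 ± 16.5 CPM in H1650 (SD, n = 2). The difference of the changes was -3.26 ± 0.102 (SE, adjusted p = 2.19e-22). Exons of TPM1 overlap the antisense gene TPM1-AS, and the strandedness of the counting is not given in the sources used here.

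TFPI2, a serine protease inhibitor of the matrix, and GADD45A, a growth arrest and stress gene, moved from similar T0 levels. TFPI2 went from 70.1 and 67.7 to 186 and 192 normalized CPM in PC9 and from 51.6 and 48.4 to 20.2 and 16.3 in H1650, and GADD45A went from 86.3 and 80.8 to 256 and 249 normalized CPM in PC9 and from 60.7 and 53.2 to 21.1 and 20.4 in H1650. For both, every treated PC9 library lay above and every treated H1650 library below all T0 libraries. Their differences were -2.91 ± 0.127 and -3.05 ± 0.128 (adjusted p = 7.62e-19 and 4.14e-19). Exons of TFPI2 overlap GNGT1 on the other strand.

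SNAI2, the EMT factor Slug, rose in PC9 from 13.8 and 13.3 to 42.5 and 48.2 CPM but was scarce in H1650, with 7 and 19 reads at T0 and 3 and 2 with drug. The ratio of T0 to drug in H1650 was 4.76, with a 95% counting interval of 1.80 to 15.9. LINC02577, a long non-coding RNA, went from 3.68 and 3.80 to 51.4 and 42 normalized CPM in PC9 and from 3.78 and 4.78 to 0.764 and 0.802 in H1650, with a difference of -6.09 ± 0.292 (SE, adjusted p = 8.20e-18).

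Contractile genes moved one way in the drug-by-line term. The SRF contractile list (actins, tropomyosins, myosin and filament genes), which was assembled after values were seen and is not independent evidence of its direction, had 18 tested members. All 18 had a called drug-by-line difference below 0, where 20.4% of all tested genes did, with a median of -2.04. For each list that follows, the shares over all tested genes to read its counts against are 41.9% called, 21.5% above 0, 20.4% below 0, and 1.74% and 2.45% opposite. In H1650, 17 fell and 1 rose, and in PC9, 13 rose and 1 fell. The 12 that passed in opposite directions were TPM1, TPM2, TPM4, MYL9, CALD1, CNN1, CNN2, ACTG2, FHL2, TGFB1I1, TRIP6 and SRF. MYL9, a regulatory light chain of myosin, went from 5.09 and 4.39 to 86.4 and 96.2 normalized CPM in PC9 and from 1157 and 1038 to 542 and 492 in H1650. Its rise in PC9 (4.27 ± 0.130) left it still well below H1650, where it fell by less (-1.09 ± 0.0884). CALD1, caldesmon, rose in PC9 from 124 and 138 to 534 and 546 CPM and fell in H1650 from 283 and 281 to 190 and 205, with a difference of -2.55 ± 0.107 (SE, adjusted p = 2.58e-19). TPM2, another tropomyosin, went from 10.3 and 8.74 to 23.6 and 22.8 normalized CPM in PC9 and from 784 and 789 to 351 and 359 in H1650. The lines drew nearer for MYL9 and TPM2 and crossed for CALD1.

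CNN1, calponin of smooth muscle, had 0 reads in both PC9 libraries at T0 and 109 and 93 with osimertinib, which is at least 34.3-fold higher against 3 reads per library. In H1650 it had 16 and 22 reads at T0 and 3 and 1 with drug, a ratio of 8.69 with a 95% counting interval of 3.13 to 33.5. ACTG2, enteric smooth muscle actin, had 0 and 0 reads in PC9 at T0 and 2 and 6 with drug, against 33 and 44 and then 4 and 3 in H1650, so its level in PC9 was near the detection limit throughout. The abundant members FLNA and MYH9, filamin A and non-muscle myosin heavy chain, fell in H1650, FLNA from 3165 and 2844 to 817 and 735 CPM and MYH9 from 2509 and 2334 to 1236 and 1105. In PC9, FLNA went from 4125 and 4257 to 4148 and 3977 and MYH9 from 2851 and 2970 to 3052 and 3041, with changes of -0.05 and 0.07 that did not pass the test (adjusted p = 0.625 and 0.425). Their drug-by-line differences were -1.91 ± 0.106 and -1.11 ± 0.0977, both called. SRF itself, the factor that gives the list its name, went from 47.9 and 45.8 to 64.5 and 65.1 normalized CPM in PC9 and from 95.1 and 81.1 to 58 and 51 in H1650 (-1.16 ± 0.124, adjusted p = 1.97e-09).

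The YAP TEAD list, of YAP and TEAD targets and regulators, had 17 tested members, all with a called difference (41.9% of all tested genes), 14 below 0 and 3 above 0, and a median of -1.26. In H1650, 12 fell and 0 rose, and in PC9, 13 rose and 4 fell. Of them 9 moved in opposite directions (2.45% of all tested genes fell in H1650 and rose in PC9): CCN1, CCN2, F3, AJUBA, NUAK2, CRIM1, TEAD1, AMOTL1 and AMOTL2. CCN1, the matricellular relative of CCN2, went from 231 and 216 to 387 and 376 normalized CPM in PC9 and from 1100 and 1039 to 266 and 252 in H1650, with a difference of -2.81 ± 0.0967 (SE, adjusted p = 2.51e-21). F3, tissue factor, which starts coagulation, rose in PC9 only slightly, from 742 and 757 to 887 and 938 CPM, and fell in H1650 from 119 and 124 to 46.2 and 45.3. AJUBA, a LIM protein that restrains the Hippo kinases, went from 74.1 and 67.8 to 147 and 139 normalized CPM in PC9 and from 113 and 102 to 51.2 and 44.7 in H1650 (-2.18 ± 0.118, adjusted p = 1.89e-16). NUAK2, a kinase linked to actomyosin tension, changed by 1.12 in PC9 and -1.07 in H1650, nearly equal in size. TEAD1, the DNA-binding partner of YAP, moved by 0.42 and -0.62. FSTL1, a secreted follistatin-like protein, rose in PC9 from 223 and 242 to 768 and 815 and stood at 1055 and 1072 and then 1060 and 1028 CPM in H1650 (adjusted p = 0.821).

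**Figure D2:**
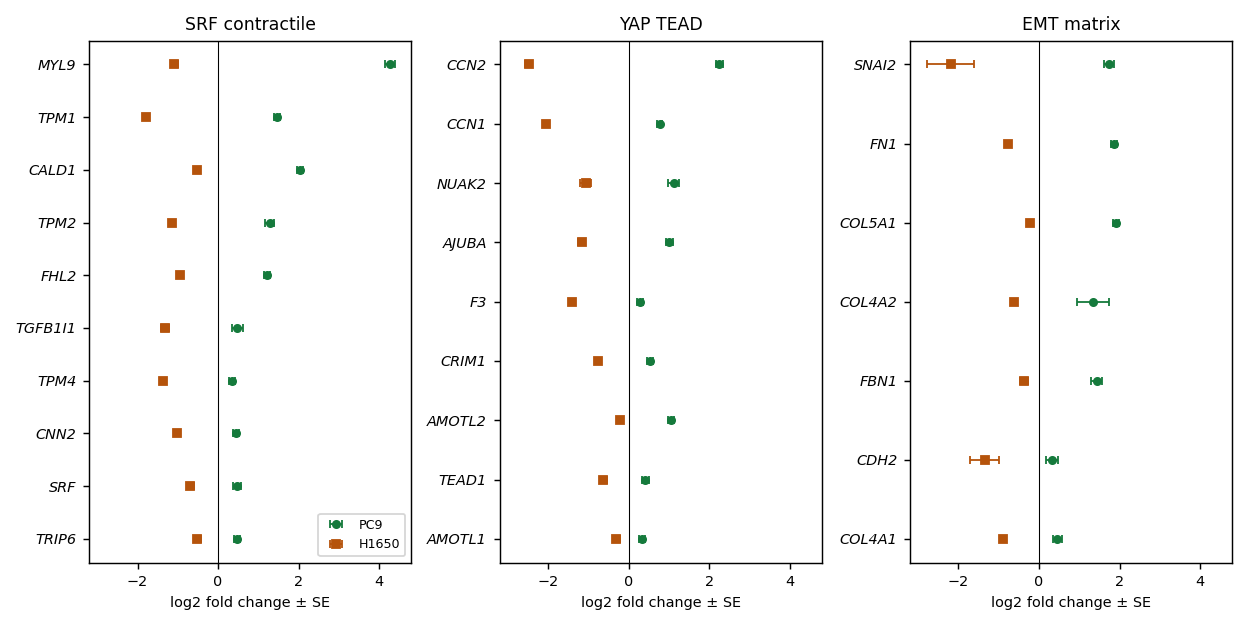
Log2 fold change with osimertinib (± SE from the model) in PC9 (green circles) and H1650 (orange squares) for members of the SRF contractile, YAP TEAD and EMT matrix lists called in opposite directions, with CNN1 and ACTG2 left out because a group had 0 reads. In all 26 genes drawn, the H1650 point is left of 0 and the PC9 point right of it. That the points lie on opposite sides of 0 follows from how the genes were chosen.

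Extracellular matrix and mesenchymal genes shared this pattern in part. The EMT matrix list had 22 tested members, 13 with a difference below 0, 4 above 0 and 5 not called, and a median of -1.23. In H1650, 14 fell and 0 rose, and in PC9, 12 rose and 8 fell. Its opposite members included SNAI2, FN1, COL4A1, COL4A2, COL5A1, FBN1 and CDH2. FN1, fibronectin, went from 171 and 176 to 615 and 654 normalized CPM in PC9 and from 849 and 801 to 520 and 447 in H1650, a crossing of the lines with a difference of -2.64 ± 0.107 (SE, adjusted p = 1.28e-19). COL5A1, a chain of type V collagen, rose in PC9 from 79 and 75.9 to 295 and 285 and fell slightly in H1650 from 1116 and 1003 to 968 and 839 (-0.23 ± 0.0721, adjusted p = 0.0121). The divergently arranged basement membrane genes COL4A1 and COL4A2 both fell in H1650, with changes of -0.90 and -0.62, from levels far above those in PC9. COL4A2 in PC9 rested on 16 reads at T0 and 40 with drug in both libraries together, a ratio of 2.54 with a 95% counting interval of 1.39 to 4.86. THBS1, the matrix glycoprotein thrombospondin-1, fell in H1650 from 1496 and 1476 to 435 and 428 and went from 970 and 1031 to 995 and 968 in PC9 (adjusted p = 0.764). TGFBI, a TGF-beta-induced matrix protein, fell in both lines, with changes of -0.77 and -0.81, a difference of -0.03 and a 95% interval of the difference of -0.22 to 0.15. The fibroblast marker sums given above moved in the same direction as COL5A1 in PC9 and reached 45.9 CPM. In H1650 these sums also rose, from 24.3 to 24.9 up to 32.6 to 34.7 CPM, whereas COL5A1 fell. COL1A1 was at up to 44.8 and COL3A1 at up to 19.9 CPM, while DCN, LUM and COL1A2 were at or near 0 throughout. The part of these markers in the result was not tested.

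The sequence before the start site was examined for genes that moved together. RefSeq promoters (GRCh38.p14, 250 bases before to 50 after the start) matched 363 of the 469 genes that fell in H1650 and rose in PC9, 241 of the 332 with the reverse pattern, and 12201 tested genes. They were searched on both strands for the CArG box bound by SRF, for GGAATG (TEAD), TGANTCA (AP-1), the interferon-stimulated response element ISRE (GAAA, 2 bases of any kind, GAAA) and TGATGNAA (ATF4 with C/EBP). A CArG box was found in 14 of the 363 promoters (3.86%) of genes lower in H1650, in 2 of the 241 (0.83%) of the reverse class, and in 1.09% of tested genes. ACTG2, EGR1, FHL2, TPM4, CNN2 and SRF were among the 14. GGAATG was in 15.2%, 9.54% and 11.1%, respectively, and TGANTCA in 4.96%, 4.15% and 5.14%. In the same order, the ISRE was in 2.2%, 4.56% and 2.84%, and TGATGNAA in 1.38%, 2.49% and 1.85%. Over all 27305 promoters of the table, the shares were 1.29% for the CArG box, 14% for GGAATG, 7.76% for TGANTCA, 3.65% for the ISRE and 3.67% for TGATGNAA. Within the lists, 6 of 16 SRF contractile promoters held a CArG box and 5 of 13 YAP TEAD promoters held GGAATG. A match of letters is a description of the sequence and not a bound site.

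The 200 bases before the start are shown for EGR1 and ACTG2, whose 2 CArG boxes each are in capitals, for CCN2, whose 3 GGAATG matches are in capitals, and for OAS3, a gene of the reverse pattern whose 2 ISRE matches are in capitals. All are written 5′ to 3′ on the strand of the gene, and OAS3, EGR1 and ACTG2 are on the plus strand while CCN2 is on the minus strand.
EGR1, chr5:138465279-138465478: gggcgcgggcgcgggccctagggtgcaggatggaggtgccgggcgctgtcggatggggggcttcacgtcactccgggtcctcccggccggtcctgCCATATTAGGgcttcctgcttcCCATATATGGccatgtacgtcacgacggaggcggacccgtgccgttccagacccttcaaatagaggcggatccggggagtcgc
ACTG2, chr2:73892808-73893007: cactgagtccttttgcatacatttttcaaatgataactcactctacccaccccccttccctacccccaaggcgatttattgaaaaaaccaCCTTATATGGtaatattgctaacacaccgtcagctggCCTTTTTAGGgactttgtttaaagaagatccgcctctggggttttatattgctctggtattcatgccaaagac
CCN2, chr6:131951373-131951572: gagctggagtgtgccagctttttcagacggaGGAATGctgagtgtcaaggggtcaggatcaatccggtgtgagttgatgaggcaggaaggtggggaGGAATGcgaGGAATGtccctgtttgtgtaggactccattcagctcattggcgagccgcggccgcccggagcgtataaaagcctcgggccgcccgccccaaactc
OAS3, chr12:112938274-112938473: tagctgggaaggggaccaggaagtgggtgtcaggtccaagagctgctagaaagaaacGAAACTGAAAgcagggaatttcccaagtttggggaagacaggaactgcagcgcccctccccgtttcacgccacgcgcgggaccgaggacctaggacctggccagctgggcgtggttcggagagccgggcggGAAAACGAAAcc
The first bases of the matches lie at -105 and -83 in EGR1, at -110 and -73 in ACTG2, at -169, -104 and -95 in CCN2, and at -143 and -12 in OAS3, counted from the start.

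Among the genes that rose in H1650 and fell in PC9 were an ETS factor, transporters and signalling genes. ETV1 (chromosome 7, 13891229 to 13991425), an ETS factor of the PEA3 family that ERK normally keeps high, went from 4.29 and 5.73 to 0.0925 and 0.0561 normalized CPM in PC9 and from 10.9 and 13.5 to 40.5 and 43.9 in H1650. In PC9 this was 85 and 116 reads at T0 and 2 and 1 with drug, a ratio of 65.9 with a 95% counting interval of 22.2 to 322. H1650 rose by 1.78 ± 0.124, and the fitted drug-by-line difference was 7.72 ± 0.399 (SE, adjusted p = 5.61e-17), a size that depends on the prior count given to those 3 reads. The other PEA3 members did not show this rise: ETV4 fell in H1650, with a change of -0.85, and ETV5 was at 5.22 and 6.56 CPM and then 5.11 and 4.59 (-0.29, adjusted p = 0.197), while both fell in PC9, with changes of -5.61 and -7.35. Exons of ETV4 overlap DHX8, and those of ETV5 overlap DGKG.

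GGT1, gamma-glutamyltransferase of glutathione turnover, went from 11 and 11.6 to 4.39 and 4.65 normalized CPM in PC9 and from 13.5 and 12 to 70.7 and 61.7 in H1650. From nearly equal T0 levels the lines moved apart in every library, with a difference of 3.69 ± 0.186 (SE, adjusted p = 3.01e-17). GGT1 has close paralogs and shares exons with SNRPD3, so its counts are uncertain. CAMKK1, a calcium/calmodulin-dependent kinase that activates other kinases, went from 34.6 and 34.8 to 14.9 and 16.1 normalized CPM in PC9 and from 1.77 and 2.28 to 9.88 and 10.7 in H1650, and the gap between the lines narrowed (3.49 ± 0.209, adjusted p = 2.13e-15).

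CASP14, a caspase of epidermal differentiation, and SLC1A6, a glutamate transporter, were low in PC9 and well expressed in H1650. CASP14 went from 1.56 and 2.62 to 0.509 and 0.224 normalized CPM in PC9 and from 72.1 and 78 to 180 and 200 in H1650, with a difference of 3.78 ± 0.367, and SLC1A6 went from 5.29 and 4.0 to 0.832 and 1.01 normalized CPM in PC9 and from 58.7 and 49 to 123 and 120 in H1650, with a difference of 3.51 ± 0.251. For both genes all H1650 libraries lay above all PC9 libraries before and after drug. NKD1, a Wnt feedback antagonist, rose in H1650 from 11.6 and 12.4 to 33.2 and 29.5 CPM and fell in PC9 from 18 and 20 reads to 1 and 1, a ratio of 18.7 with a 95% counting interval of 4.83 to 160. CLCA2, a regulator of chloride currents, rose in H1650 from 53.5 and 54.1 to 129 and 135 CPM and went in PC9 from 5 and 7 reads to 2 and 0. Its ratio in PC9 was 5.90, with a 95% counting interval of 1.31 to 54.3. TNIK, a kinase of the Wnt and JNK pathways, fell in PC9 from 56.9 and 59.7 to 20.9 and 23.5 CPM but in H1650 was read only 1 and 0 times at T0 and 3 and 6 times with drug. The H1650 ratio for TNIK was 9.83, with a 95% counting interval of 1.36 to 431.

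**Figure D3:**
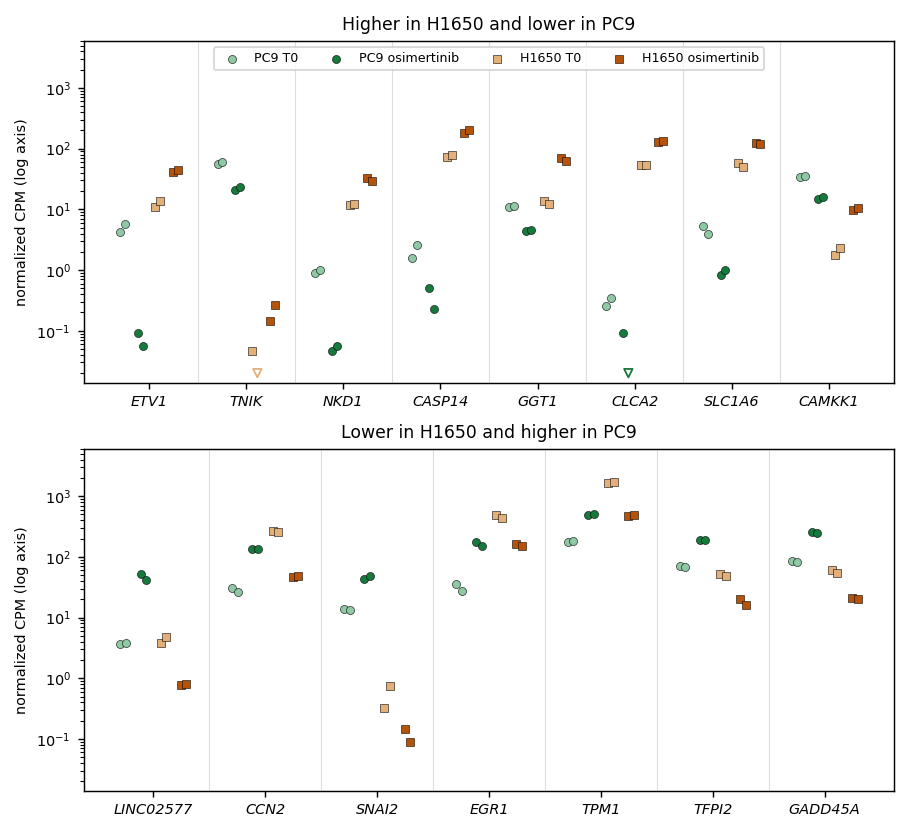
Normalized CPM (log axis) in each of the 8 libraries for 15 genes named for opposite changes, with PC9 as circles, H1650 as squares, T0 pale, osimertinib dark, and open triangles for libraries with 0 reads. CCN2, EGR1 and TPM1 start higher in H1650 and meet or cross PC9 with drug, whereas CASP14 and SLC1A6 start apart and end further apart.

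The ERK output list, of ETS factors, dual-specificity phosphatases, Sprouty and Spred genes, EGFR ligands and immediate-early genes, changed less in H1650. Of 23 tested members, 20 had a difference above 0, 2 below 0 and 1 was not called, against 21.5% and 20.4% of all genes. PC9 lowered 21 and raised 2, and H1650 lowered 13 and raised 1, with median changes of -3.40 and -0.37. EPHA2, a receptor kinase induced by ERK, fell in PC9 from 295 and 288 to 27.7 and 27.6 CPM and in H1650 only from 244 and 227 to 198 and 188 (3.11 ± 0.109, adjusted p = 3.98e-21). CCND1, cyclin D1, went from 716 and 749 to 201 and 196 normalized CPM in PC9 and from 210 and 216 to 151 and 154 in H1650, so that the lines, far apart at T0, came close together.

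Cell-cycle lists followed the same form without any member moving in opposite directions. All 22 E2F replication genes and 21 of 22 G2M mitosis genes had a difference above 0, with medians of 2.73 and 2.27. In PC9 the median changes were -3.23 and -3.05, and in H1650 -0.50 and -0.74. RRM2, the ribonucleotide reductase subunit of S phase, went from 297 and 303 to 15.1 and 14.3 normalized CPM in PC9 and from 457 and 467 to 194 and 214 in H1650, and MCM7, of the replicative helicase, went from 414 and 418 to 130 and 131 normalized CPM in PC9 and from 184 and 173 to 143 and 153 in H1650. PCNA, the replication clamp, fell in PC9 from 321 and 305 to 39.3 and 47.1 CPM but only from 191 and 183 to 162 and 170 in H1650, where the test was not passed (adjusted p = 0.0749). The mitotic genes TOP2A, TPX2 and MKI67 fell in both lines, with changes of -3.25, -3.16 and -3.15 in PC9 against -0.80, -0.75 and -1.02 in H1650. The MYC ribosome biogenesis list had all 20 members with a difference above 0 and a median of 1.04. The nucleolar genes NPM1, NCL and NOP56 fell in both lines, with changes of -1.11, -1.61 and -2.25 in PC9 against -0.73, -0.58 and -0.78 in H1650. The difference for NPM1, 0.37, dropped to 0.295 and missed the threshold without PC9 osimertinib replicate 1 (adjusted p = 0.054).

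CDK inhibitors gave no single direction: of 7 tested genes 2 had a difference above 0, 1 below 0 and 4 were not called. CDKN1B, p27, which holds cells in G1, rose in PC9 from 63.8 and 67.5 to 123 and 136 CPM and was at 60.4 and 54 and then 59.9 and 61.1 in H1650 (adjusted p = 0.488), with a difference of -0.89 ± 0.118 (SE, adjusted p = 1.31e-07). CDKN1A, p21, went from 31.3 and 33.7 to 22.6 and 24.2 normalized CPM in PC9 and from 346 and 325 to 311 and 287 in H1650, and its difference was 0.31 (95% interval 0.04 to 0.59, adjusted p = 0.0636). That difference passed with no filter on low counts, with the 8 libraries alone, with the replicate block and without H1650 T0 replicate 1 or H1650 osimertinib replicate 2 (adjusted p = 0.0041, 0.0178, 0.0198, 0.0412 and 0.038). CDKN2A, p16 and p14ARF, had 0 reads in all 4 H1650 libraries, so no difference could be estimated for it. Of the 7 tested members, 2, with CDKN2A among them, had a group with no more than 3 reads per library. The list median includes their fitted values. That median difference, -0.53, stood beside median changes of 0.53 in PC9 and 0 in H1650. How far it rests on the members with few reads was not tested. The median turned to 0.92 over the members with at least 10 counts in every library, and to 0.03 without H1650 T0 replicate 1.

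**Figure D4:**
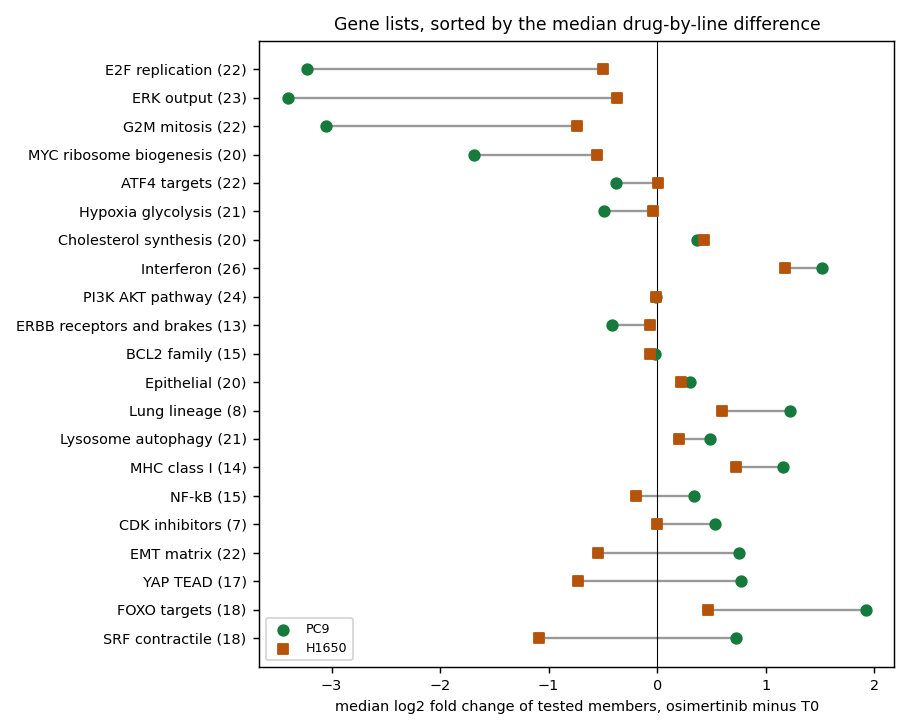
Median log2 fold change with osimertinib over the tested members of each gene list (number in brackets) in PC9 (green circles) and H1650 (orange squares), sorted by the median drug-by-line difference. H1650 lies nearer to 0 for the cell-cycle and ERK lists, and the lines lie on opposite sides of 0 for SRF contractile, YAP TEAD, EMT matrix, NF-kB and, with H1650 at 0.01, ATF4 targets, where the NF-kB median difference turned sign in 5 of the fits that left out a library.

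Of the FOXO targets, 15 rose and 3 fell in PC9, and 9 rose and 3 fell in H1650. Of 18 tested members, 13 had a difference below 0 and 2 above 0, with median changes of 1.92 in PC9 and 0.47 in H1650. TXNIP, a thioredoxin-binding protein that limits glucose uptake, rose in PC9 from 115 and 119 to 522 and 543 CPM and stood at 35.8 and 39.2 and then 38.3 and 35.8 in H1650 (adjusted p = 0.899), with a difference of -2.21 ± 0.110 (SE, adjusted p = 2.38e-17). CITED2, a transcriptional coregulator, rose in PC9 from 18 and 14.7 to 247 and 239 CPM to near its H1650 level of 196 and 171. RBL2, the quiescence pocket protein p130, rose in both lines, by 1.20 and 0.26. Beside GADD45A, the opposite members were SESN3, a sestrin that restrains mTORC1, at or below 2.07 CPM in every library, and TRIB2, a pseudokinase, which fell in PC9 from 29.7 and 27.6 to 2.08 and 2.13 CPM and rose in H1650 from 11.9 and 12.5 to 19.2 and 20.2 (4.45 ± 0.207, adjusted p = 3.65e-18).

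In the BCL2 family, 11 of 15 tested genes had a called difference, 5 above 0 and 6 below 0, where 41.9% of all tested genes were called. BOK, a BAX-like effector, rose in PC9 from 104 and 103 to 197 and 183 CPM and fell in H1650 from 98.8 and 77 to 71.1 and 64.2, with a difference of -1.25 ± 0.126 (SE, adjusted p = 1.49e-09). BID, a BH3-only gene cleaved by caspase 8, did the reverse: it went from 48.2 and 47.4 to 33.9 and 32.5 normalized CPM in PC9 and from 52.6 and 49.7 to 63.3 and 64.1 in H1650, with a difference of 0.84 ± 0.119 (SE, adjusted p = 4.90e-07). MCL1, an anti-apoptotic member, rose slightly in PC9 (0.21 ± 0.0661) and went from 241 and 248 to 242 and 233 CPM in H1650 (adjusted p = 0.677). Its called difference, -0.25, lost the call in all 8 fits that left out a library (adjusted p = 0.0523 to 0.163). BCL2L11, the BH3-only gene BIM, rose in both lines by 1.70 and 0.73, with a called difference of -0.97 (adjusted p = 6.6e-08). BCL2L1, BCL-XL, fell in PC9 (-1.18) and had a change of -0.14 in H1650 (adjusted p = 0.163). Exons of BOK, BCL2L1 and BCL2L11 overlap antisense or neighbouring non-coding genes.

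Receptors and their brakes differed in degree. The ERBB list had 4 differences above 0 and 5 below 0 among 13 tested members, and its median of -0.14 changed sign, to 0.00, without H1650 T0 replicate 1. ERRFI1, the feedback inhibitor MIG6 that binds the EGFR kinase domain, was the opposite member: it went from 58.2 and 54.6 to 32 and 31.8 normalized CPM in PC9 and from 165 and 180 to 215 and 222 in H1650, with a difference of 1.16 ± 0.109 (SE, adjusted p = 1.10e-10). ERBB2 rose in both lines, from 87.1 and 86.5 to 191 and 183 CPM in PC9 and from 298 and 274 to 409 and 380 in H1650, so on the log2 scale the rise was smaller in H1650 (-0.65 ± 0.0991) while in CPM it was larger by 7.81. TGFA, an EGFR ligand, fell in both lines (-1.08 and -0.80). The PI3K AKT pathway list had 6 differences above 0 and 9 below 0 of 24, no opposite member, and a median of -0.02 that turned to 0.08 with no filter on low counts and to 0.05 without H1650 T0 replicate 1. AKT2 changed by -0.02 and -0.01, with a 95% interval of the difference of -0.19 to 0.21. AKT1 fell in both lines (-0.78 and -0.35). RHEB, the GTPase that activates mTORC1, also fell (-0.45 and -0.41), with an interval of the difference of -0.16 to 0.24.

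Serine synthesis enzymes moved in opposite directions. The ATF4 targets list, of amino acid and integrated stress response genes, had 10 differences above 0 and 7 below 0 of 22. PHGDH, PSAT1 and PSPH, the 3 enzymes of the route from 3-phosphoglycerate to serine, all fell in PC9 and rose in H1650. PSAT1 went from 150 and 161 to 20.2 and 21 normalized CPM in PC9 and from 90.4 and 89.3 to 108 and 101 in H1650, a change of -2.92 ± 0.0808 against 0.22 ± 0.0709 and a difference of 3.14 ± 0.107 (SE, adjusted p = 2.39e-21). PHGDH, the first enzyme of the route, went from 98.6 and 97.4 to 37.1 and 38.5 normalized CPM in PC9 and from 105 and 101 to 181 and 177 in H1650, starting alike and ending with every H1650 library above every PC9 library (2.18 ± 0.100, adjusted p = 3.04e-18). PSPH, the last, went from 116 and 120 to 50.9 and 59.1 normalized CPM in PC9 and from 33.2 and 33.8 to 41.3 and 44.5 in H1650 (1.46 ± 0.127, adjusted p = 2.20e-11). TRIB3, a pseudokinase that ATF4 induces, showed the same signs (-1.20 in PC9, 0.25 in H1650). ATF4 itself rose in both lines, by 0.18 and 0.46.

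SLC7A5 and ATF3 of the same list went the other way. SLC7A5, the large neutral amino acid transporter LAT1, went from 2212 and 2113 to 2539 and 2574 normalized CPM in PC9 and from 1017 and 885 to 454 and 384 in H1650 (-1.42 ± 0.109, adjusted p = 1.40e-12), and its partner chain SLC3A2 fell in H1650 from 359 and 334 to 209 and 188 CPM and went from 806 and 777 to 826 and 880 in PC9 (adjusted p = 0.19). ATF3, an immediate-early stress factor, rose in PC9 from 3.73 and 2.32 to 38.8 and 37.6 CPM and fell in H1650 from 57.6 and 54.9 to 40.6 and 39.6, which left the treated lines at nearly the same level (-4.15 ± 0.170, adjusted p = 1.55e-19).

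Among hypoxia and glycolysis genes, 10 had a difference above 0 and 6 below 0 of 21. ENO1 and LDHA, glycolytic enzymes, fell in both lines, with changes of -1.77 and -1.63 in PC9 against -0.41 and -0.47 in H1650. VEGFA, the angiogenic growth factor, started alike and diverged, going from 94.6 and 90.3 to 61.1 and 55.8 normalized CPM in PC9 and from 101 and 108 to 185 and 186 in H1650 (1.49 ± 0.110, adjusted p = 3.94e-13). PFKFB4, an enzyme that sets fructose-2,6-bisphosphate, moved by -0.49 in PC9 and 0.53 in H1650. SLC2A1, the glucose transporter GLUT1, rose slightly in PC9 (0.23) and had a change of 0.00 in H1650, with a difference that missed the threshold (adjusted p = 0.0518). Of 20 cholesterol synthesis genes, 8 had a difference above 0 and 4 below 0. MVK, mevalonate kinase, was the opposite member (-0.28 and 0.46). SREBF2, the factor that drives the pathway, rose in both lines, by 1.47 and 0.42. The call on SLC2A1 turned with several settings, including DESeq2.

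**Figure D5:**
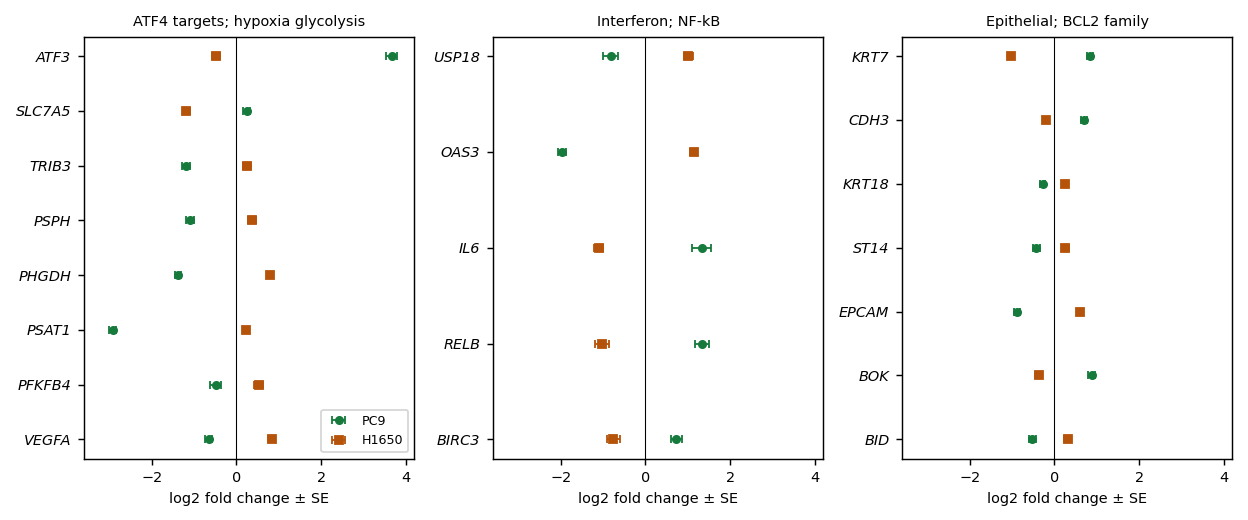
Log2 fold change with osimertinib (± SE from the model) in PC9 (green circles) and H1650 (orange squares) for opposite members of 6 further lists. PSAT1, PHGDH, PSPH, TRIB3, VEGFA, OAS3, USP18, EPCAM and BID lie right of 0 in H1650 and left of 0 in PC9, while ATF3, SLC7A5, IL6, RELB, BIRC3, KRT7, CDH3 and BOK do the reverse.

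Interferon-stimulated genes rose in both lines, but not the same members by the same amount. Of 26 tested members, 25 rose and 0 fell in H1650, 19 rose and 2 fell in PC9, 9 differences were above 0 and 6 below 0, and 11 were not called. OAS3 (chromosome 12, 112938474 to 112973251), a 2′-5′ oligoadenylate synthetase that activates RNase L, went from 64 and 67.4 to 17.6 and 15.9 normalized CPM in PC9 and from 339 and 287 to 705 and 666 in H1650, with a difference of 3.10 ± 0.120 (SE, adjusted p = 5.03e-20). USP18, the protease that removes ISG15 and damps interferon signalling, shared the signs, going from 6.76 and 5.73 to 3.61 and 3.42 normalized CPM in PC9 and from 25.4 and 22.9 to 52.1 and 45.1 in H1650 (1.83 ± 0.201, adjusted p = 3.22e-09). OAS1, a relative of OAS3, rose in both lines but more in H1650 (1.63 ± 0.153, adjusted p = 1.23e-10). MX1, an antiviral GTPase, rose in both, by 1.64 and 2.03, with a difference of 0.39 that did not pass (adjusted p = 0.0879). It passed with no filter on low counts, with the replicate block and without H1650 T0 replicate 1 (adjusted p = 0.0287, 0.048 and 0.026). IFI6, an interferon-induced membrane protein, rose more in PC9 on the log2 scale (-2.05 ± 0.289) but by 795 CPM more in H1650, where it was far higher at T0. The list's median difference of 0.11 turned to -0.10 without PC9 T0 replicate 1.

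MHC class I presentation genes had 3 differences above 0 and 8 below 0 of 14, with medians of 1.16 in PC9 and 0.72 in H1650 and no opposite member. B2M, the common light chain, rose by 0.84 and 0.82, and HLA-C by 0.61 and 0.63, with 95% intervals of the difference of -0.22 to 0.17 and -0.24 to 0.27. TAPBP, tapasin, rose by 1.16 and 0.57 (-0.59 ± 0.0961, adjusted p = 5.32e-06). Reads of HLA-C can be shared with other HLA genes. In the NF-kB list 4 differences were above 0 and 7 below 0 of 15, and the median of -0.53 turned positive in 5 of the fits that left out a library. IL6, an inflammatory cytokine, went from 1.76 and 1.28 to 3.88 and 3.76 normalized CPM in PC9 and from 72.9 and 75.2 to 33.4 and 35.7 in H1650 (-2.43 ± 0.252, adjusted p = 1.06e-09), with every H1650 library above every PC9 library throughout. RELB, of the non-canonical pathway, went from 9.43 and 8.64 to 23.2 and 22.5 normalized CPM in PC9 and from 14.5 and 10.3 to 7.06 and 5.03 in H1650, and BIRC3, the inhibitor of apoptosis cIAP2, went from 17.6 and 17.9 to 30.3 and 28.6 normalized CPM in PC9 and from 7.04 and 7.79 to 4.63 and 4.19 in H1650. For both the treated PC9 libraries were the highest and the treated H1650 libraries the lowest. NFKBIA, the inhibitor IκBα, rose in both lines by 1.65 and 1.09, NFKB2 rose in PC9 (1.29) with -0.02 in H1650, and TNFAIP2 rose in H1650 (0.48) with -0.07 in PC9.

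Epithelial genes split within the list. Of 20 tested members, 5 had a difference above 0, 10 below 0 and 5 were not called. KRT7, a simple-epithelium keratin, went from 2392 and 2196 to 4030 and 4142 normalized CPM in PC9 and from 2081 and 1934 to 1044 and 921 in H1650 (-1.86 ± 0.103, adjusted p = 2.65e-16), so that similar T0 levels ended far apart, at 4086 ± 79.2 CPM in PC9 and 983 ± 87 in H1650 (SD, n = 2). EPCAM, the epithelial adhesion molecule, did the reverse and the treated lines met, going from 537 and 541 to 273 and 307 normalized CPM in PC9 and from 199 and 214 to 317 and 306 in H1650 (1.49 ± 0.101, adjusted p = 4.82e-14). KRT18, ST14 (the protease matriptase) and CDH3 (P-cadherin) moved in opposite directions by less than 1 in each line, with differences of 0.54, 0.69 and -0.90. KRT8, the partner of KRT18, rose in H1650 (0.38) with a change of 0.01 in PC9, and KRT19 rose in both (0.95 and 0.63). KRT8 and KRT18 overlap each other, and KRT7 overlaps KRT7-AS, so without strand their reads cannot be told apart at the shared bases.

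Lung lineage genes were mostly below the filter, with 8 of 18 tested, 2 differences below 0 and 0 above 0. MUC1, a membrane mucin, rose in PC9 from 8.47 and 7.40 to 135 and 131 CPM and in H1650 from 120 and 118 to 214 and 217 (-3.21 ± 0.120, adjusted p = 1.86e-20). AGR2, a secretory pathway isomerase, rose by 1.31 and 1.03 (difference -0.28, 95% interval -0.85 to 0.29), and FOXA1, a lineage factor, rose in H1650 from a low level (0.62) with 0.19 in PC9. The median of this list, -0.29, was positive in 4 of the fits that left out a library. Of 21 lysosome and autophagy genes, 4 had a difference above 0 and 12 below 0. SQSTM1, the autophagy receptor p62, rose in PC9 from 484 and 483 to 1210 and 1208 CPM and went from 122 and 112 to 141 and 123 in H1650 (adjusted p = 0.0696). LAMP1 and CTSB rose in both lines, by 0.46 and 0.64 in PC9 against 0.20 and 0.21 in H1650.

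Over all lists together, 17 of 387 distinct tested genes (4.39%, against 1.74% of all tested genes) rose in H1650 and fell in PC9, and 40 (10.3%, against 2.45%) fell in H1650 and rose in PC9. All lists were chosen with earlier results of these data known, so these shares are a description and not a test. The 387 include the SRF contractile list, added after values were seen, which holds 12 of the 40.

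Among genes that changed in the same direction but less in H1650, ALPP, placental alkaline phosphatase, rose from 11.8 and 10.8 to 701 and 698 normalized CPM in PC9 and from 158 and 148 to 429 and 376 in H1650 (-4.55 ± 0.117, adjusted p = 2.04e-24). The near-identical copy ALPG can share its reads. LOXL4, a lysyl oxidase-like enzyme, and ATG9B, an autophagy protein, rose by 6.00 and 6.21 in PC9 and by 1.29 and 0.83 in H1650, and exons of ATG9B overlap NOS3 on the other strand. In each of these genes PC9 started below H1650 and ended above it. ETV4, FABP5 (a fatty acid-binding protein) and CDCA7 (a chromatin factor of S phase) fell in both lines, with differences of 4.77 ± 0.280, 3.73 ± 0.211 and 4.32 ± 0.162. CDCA7 went from 115 and 114 to 4.95 and 4.32 normalized CPM in PC9 and from 29.3 and 29.6 to 22.2 and 25.8 in H1650.

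Fewer genes changed more in H1650. ACTB, beta-actin, often used as a reference gene, fell in both lines but more in H1650, going from 9147 and 9340 to 6433 and 6970 normalized CPM in PC9 and from 12739 and 12128 to 4596 and 4353 in H1650 (-1.01 ± 0.0957, adjusted p = 1.39e-10). SERPINE2, a protease inhibitor of the matrix, fell in both lines (-0.47 and -2.06), as did SOCS2, a cytokine signalling suppressor (-0.42 and -1.80). KLK8, a secreted kallikrein, and HID1, a Golgi protein of secretory granules, rose by 1.43 and 1.34 in PC9 and 2.56 and 2.55 in H1650. KLK8, HID1, SERPINE2 and SOCS2 were lower in H1650 at T0, and on the linear CPM scale their differences had the other sign, at -10.7, -24.7, 42.1 and 0.43 CPM. The difference for KLK8, 1.13, dropped to 0.623 without H1650 T0 replicate 1 and to 0.852 without H1650 osimertinib replicate 2, and missed the threshold in both (adjusted p = 0.126 and 0.056).

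For 962 genes that changed in the same direction in both lines, the 95% interval of the drug-by-line difference lay within 0.5 of 0. UBA7, the enzyme that activates ISG15, went from 13.9 and 13.2 to 89.6 and 93.1 normalized CPM in PC9 and from 18.8 and 18.5 to 110 and 107 in H1650, with an interval of -0.49 to 0.06. APOL3, an apolipoprotein L induced by interferon, rose by 2.14 and 2.17 (interval -0.37 to 0.43). FGFRL1, a receptor of the FGF family without a kinase domain, fell in both lines (-1.43 and -1.59), as did SERPINB7, an intracellular serpin (-1.39 and -1.34), with intervals of -0.41 to 0.10 and -0.32 to 0.42.

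Many opposite genes started from unequal levels. Of the 469 that fell in H1650 and rose in PC9, 62.5% were higher in H1650 at T0 and 24.7% lower, against 35.8% and 33.7% of all tested genes. Of the 332 with the reverse pattern, 27.1% were higher in H1650 at T0 and 56.9% lower. The T0 libraries enter both measures, so these shares are a description and not a test. The gap between the lines changed sign for 203 of the 469 and for 135 of the 332, and it widened for 248 and 179. These counts were not set against all tested genes and are likewise a description and not a test. In the whole table, H1650 and PC9 differed for 13265 genes at T0 and 13658 with osimertinib. Opposite genes had a median mean level of 50.9 CPM (fell in H1650) and 37.1 CPM (rose in H1650), against 13.1 CPM over all tested genes, and 92.7% and 96.6% of those found in GENCODE 29 were protein-coding, against 77.4%. The same-direction classes were similar, so this is not particular to opposite genes. Genes that changed less in H1650 had 37.3 CPM and 93.1%, and those that changed more had 50.4 CPM and 93.7%. On the linear CPM scale, 336 of the 8004 called genes had a difference of the other sign. None of the 801 did, which follows from their changes having opposite signs and is not a test.

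With erlotinib, which shares the T0 libraries with osimertinib, some of the named opposite genes had these values beside those above. CCN2 changed by 1.11 in PC9 and -2.64 in H1650, with a drug-by-line difference of -3.75 ± 0.124, beside -4.73 for osimertinib. EGR1 changed by 0.78 and -2.57 (-3.35 ± 0.150 beside -3.92), and TPM1 by 0.66 and -1.99 (-2.65 ± 0.101 beside -3.26). GADD45A changed by 1.43 and -1.04, and GGT1 by -0.90 and 1.66, with differences of -2.47 ± 0.126 and 2.57 ± 0.179 beside -3.05 and 3.69. The differences with erlotinib were larger in size than those with osimertinib for TNIK (5.10 ± 0.874 beside 4.38), CLCA2 (6.48 ± 1.15 beside 3.73) and SNAI2 (-4.23 ± 0.645 beside -3.94), genes whose osimertinib values rest on a group with at most 3 reads per library. ETV1 (6.71 ± 0.323 beside 7.72) and NKD1 (2.45 ± 0.392 beside 5.46), which also have such a group, went the other way. With erlotinib, CLCA2 was at 0 CPM in both PC9 libraries and SNAI2 at 0.103 and 0.0466 CPM in H1650. The fitted sizes with erlotinib for CLCA2 and SNAI2 therefore depend on the prior count too. Since the T0 libraries are shared, the values of the drugs are not independent, and the difference between the drugs was not tested here.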

How the data were processed

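Polyadenylated RNA of PC9 and H1650 cells was sequenced in 12 libraries, and the deposited values are raw gene-level counts that the authors made with featureCounts in the DolphinNext pipeline. GRCh38 and DESeq2 appear in the submitters' processing notes, while the aligner, the annotation release and the strand setting are not given in the sources used here. Counts were read as deposited for 60591 genes, and libraries were grouped by the line, drug and time in the labels.

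Of these genes, 19108 passed edgeR's expression filter by group (filterByExpr) and were fitted with TMM scaling in 1 model of 6 groups (edgeR 4.0.16 quasi-likelihood F-test with robust estimation, limma 3.58.1, R 4.3.3, residual degrees of freedom 6). P-values were adjusted by Benjamini-Hochberg over all tested genes, with a threshold of 0.05. Log2 values are edgeR estimates, and levels are CPM on TMM-scaled library sizes. SE was derived from the test, as the size of the log2 value over the square root of its F statistic. The 95% intervals of the drug-by-line difference use this SE. The totals of the 12 libraries were 17961765 to 26346187 reads. The study describes the 2 replicates of a group as biological. A gene moved in opposite directions if it passed in PC9, in H1650 and in the drug-by-line term with unlike signs. Counting intervals are exact 95% binomial intervals of a ratio of summed reads.

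Members and gene lists were chosen with earlier results of these data known, and the SRF contractile list was added after values were seen, so lists are described by counts and medians with no set test. The 20 other lists (ERK output, ERBB receptors and brakes, PI3K AKT pathway, FOXO targets, BCL2 family, E2F replication, G2M mitosis, MYC ribosome biogenesis, interferon, MHC class I, NF-kB, EMT matrix, YAP TEAD, epithelial, lung lineage, cholesterol synthesis, ATF4 targets, hypoxia glycolysis, CDK inhibitors, lysosome autophagy) held 387 genes, of which 369 were tested. Named genes were, at a mean of at least 10 CPM, the 8 opposite genes in each direction whose smaller change was largest, the 3 rising and 3 falling genes that differed most with PC9 changing more and likewise with H1650 changing more, and the 2 rising and 2 falling genes with the largest changes among those alike. In each list the 3 members with the highest mean and all opposite members were named, together with BCL2L11, BCL2L1, CCND1 and ETV5. Some of the genes so chosen are not reported here. RefSeq gave positions for all 138 named genes and the promoters (GRCh38.p14). GENCODE 29 exons were matched for 136, of which 41 overlap another tested gene.

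On simulated counts with 200 genes changed by 1 on the log2 scale, the edgeR test of the drug-by-line difference recovered 193, with 25 false calls among 17607 unchanged genes. Of 100 further genes set to move in opposite directions, 99 were recovered. The changed genes were well expressed at T0 in both lines, and far fewer were changed than the 8004 called in the data. These rates therefore do not describe genes with few reads. Alternatives were RLE and upper-quartile scaling, DESeq2 1.42.0, other filters and thresholds, the 8 libraries alone, a replicate block, a linear scale and leaving out each library. Same-numbered replicates did not deviate together (correlations of -0.0671 to 0.0947), so replicate numbers were not used as pairs.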

Additional observations from a re-analysis of the deposited data

Results flagged for a closer look

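Each result here is a drug-by-line difference that passed the test in genes whose changes had opposite signs in the lines. Counted over all tested genes, 332 rose in H1650 and fell in PC9, and 469 fell in H1650 and rose in PC9. The 8 genes of the first kind chosen by their smaller change had log2 differences of 7.72 (ETV1), 5.46 (NKD1), 4.38 (TNIK), 3.78 (CASP14), 3.73 (CLCA2), 3.69 (GGT1), 3.51 (SLC1A6) and 3.49 (CAMKK1). Of the second kind, 7 genes had -6.09 (LINC02577), -4.73 (CCN2), -3.94 (SNAI2), -3.92 (EGR1), -3.26 (TPM1), -3.05 (GADD45A) and -2.91 (TFPI2). For ETV1, NKD1, TNIK, CLCA2 and SNAI2, 1 group held at most 3 reads per library, so these fitted sizes depend on the prior count. With 2 libraries a group, no library could be tested as standing apart from its group.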

How the results depend on the processing

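The counts of called genes moved with the threshold. With a log2 size over 1 added, 3840 genes differed between the lines, 128 moved in opposite directions, 2108 changed less and 78 changed more in H1650, and at an adjusted p under 0.01 the opposite genes were 528 and those changing more 189. Leaving out 1 library at a time gave 7020 to 7495 differing genes, 623 to 740 opposite, 4070 to 4417 changing less and 224 to 277 changing more. The remaining settings kept each of these counts within 1.5 times, DESeq2 giving 7060, 663, 4189 and 249. The replicate block gave 8693, 1010, 5054 and 405. The share of differences above 0 was 51.3%, 47% with upper-quartile scaling and 57% with no filter, and no scaling moved the median of all genes by over 0.1. Of 2608 comparisons of 138 named genes, 2490 kept direction and call, 68 lost the call, 13 gained it and 37 turned direction. On the linear CPM scale the signs turned for KLK8 (-10.7), HID1 (-24.7), SERPINE2 (42.1), SOCS2 (0.43), UBA7 (12), FGFRL1 (77.8), SERPINB7 (-35.7), ERBB2 (7.81), IFI6 (795), B2M (217), FOXA1 (-4.57) and CDKN1A (-26.9). Log2 differences near 0 also turned: APOL3 (-0.0284), SERPINB7 (-0.00335), RHEB (-0.017), AKT2 (-0.0476) and HLA-C (-0.0377) with upper-quartile scaling, APOL3 (-0.00136), AKT2 (-0.0207) and HLA-C (-0.0109) with at least 10 counts in every library, and B2M (0.0492) and TGFBI (0.0422) with no filter. Leaving out libraries gave ranges of -0.097 to 0.151 for APOL3, -0.192 to 0.31 for SERPINB7, -0.0241 to 0.059 for AKT2, -0.0797 to 0.0328 for B2M, -0.118 to 0.172 for HLA-C and -0.0561 to 0.0189 for TGFBI. The cause of these shifts was not tested. Depth limits genes with a group at or under 3 reads per library, 43 of the 801 opposite genes and 35 of the 128 whose changes both exceeded 1. The same limit holds for 433 of the 8004 genes with a called difference, and 2929 of the 19108 tested genes had such a group.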
